A study of Mus musculus with 2 samples.

Results

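The genes by which phagocytes wrap membrane around a dying cell and then mature the phagosome were described through 42 members, taken by gene symbol from the 27998 genes that both libraries list. By role they comprised 13 genes of the ELMO-DOCK-Rac module, 10 of actin branching, 5 of actin turnover, 4 Rab GTPases, 9 of LC3-associated phagocytosis and the phagocyte oxidase, and 1 mitochondrial carrier, Ucp2. On GRCm38 (GENCODE vM21), the members described most lie at chr15:78559167-78572783 (Rac2), chr7:102239123-102256054 (Rhog), chr2:73429610-73529734 (Wipf1), chr7:126699773-126707787 (Coro1a), chr6:87999106-88045270 (Rab7) and chrX:9435252-9487771 (Cybb), all on the minus strand, and at chr2:35256380-35307892 (Gsn) and chr6:72544391-72562983 (Capg) on the plus strand. Each span covers the whole annotated gene.

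Myeloid cells were sorted by flow cytometry as live CD45+ CD11b+ cells from malignant pleural effusions of mice, 10 days after intrapleural injection of 150000 cells of LLC, a line of mouse Lewis lung carcinoma, suspended in 100 µl. CD45 marks leukocytes and CD11b is an integrin chain of most myeloid cells. Both droplet libraries (10x Genomics 3' end kit) belong to this 1 group, so every comparison below lies between cell classes of the same libraries and none against mice without tumour. The sources used here do not give the strain, age or number of the mice, and the series title names the uptake of dying cells and TIMP1 as its subject.

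As background, receptors that bind a dying cell signal through the adaptor Crk and the ELMO-DOCK exchange factors, which load the GTPase Rac. Rac and Cdc42 act through the WAVE and WASP proteins on the Arp2/3 complex, which branches actin filaments into the phagocytic cup. Rab5 and then Rab7 mark the closed phagosome on its way to the lysosome, while in LC3-associated phagocytosis Rubicon, Beclin 1 and the NADPH oxidase allow the lipidated LC3 protein to be attached to the phagosome membrane.

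Library 1 held 1141 barcodes with 11543829 gene UMIs (unique molecules counted) and library 2 held 2908 with 20322996. The medians per barcode were 9894 and 1954.5. After removal of barcodes with under 300 genes or over 10% mitochondrial UMIs, 1116 and 2847 cells remained, and 4 barcode sequences occurred in both libraries. The libraries stood apart in several ways. In library 1, Y-linked RNA without Xist was found in 767 cells and Xist in 0, while in library 2 Xist alone was found in 1298, Y-linked RNA alone in 109 and both in 68, so library and sex largely coincide. Library 2 alone carries 2 antibody tags, BC2 and BC3, that the labels do not explain; BC3 dominated in 1548 of its 1570 neutrophil-gated cells and BC2 in 277 of its 282 macrophage-gated cells.

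Cells were assigned to classes by marker genes alone, none of them a member. Neutrophil-gated cells (S100a8, Retnlg and others) numbered 78 and 1570 in library 1 and library 2, C1q-high macrophage-gated cells 234 and 282, monocyte-gated cells 332 and 477, dendritic-gated cells 136 and 44, and resident-macrophage-gated cells (Gata6, Prg4 and others, marking large resident pleural macrophages) 27 and 22. A further 97 and 223 cells with less C1q RNA were kept apart as C1q intermediate. Levels of C1q form a range and not 2 separate types: 24 and 60 macrophage-gated cells lay within 20% of the gate. The gated classes carried their defining markers. S100a8 was at 118747 and 74093 CPM (a gene's share of the UMIs summed for that class and library, times 1000000) in neutrophil-gated cells and at 1294 or less in every other fitted class, and C1qa was at 2392 and 1881 CPM in macrophage-gated against 19.3 and 20.1 CPM in monocyte-gated cells. The gate for monocytes uses low C1q, and their wider macrophage panel, which includes Apoe, still summed to 6279 and 3985 CPM against 16321 and 11857 CPM in macrophage-gated cells. Eosinophil markers were at 0, and tumour or epithelial markers were at 5 UMIs in each library. Platelet markers summed to 2352 and 242 CPM in macrophage-gated cells and 1741 and 176 CPM in monocyte-gated cells, but to 143 CPM or less in the neutrophil, dendritic and resident classes. Only 2 of the 5 platelet markers had any UMI in library 1 and 3 in library 2, so these sums alone do not show platelets. Haemoglobin genes summed to between 51.2 and 112 CPM in the fitted classes of library 1 and to 16.5 CPM or less in those of library 2.

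Upstream sequences are shown for 3 members whose levels separated the classes in opposite order: Gsn and Coro1a were highest in neutrophil-gated and lowest in resident-macrophage-gated cells, and Cybb was the reverse. They come from RefSeq on GRCm38.p6 (mm10), which matched 38 of the 42 members (not Rac1, Rac2, Becn1 and Ncf4), and give the 250 bases before a listed transcription start, 5' to 3' on the gene's strand. Capitals mark GAGGAA, the core bound by PU.1 and other ETS factors, on either strand.
Gsn, chr2:35256109-35256358, plus strand: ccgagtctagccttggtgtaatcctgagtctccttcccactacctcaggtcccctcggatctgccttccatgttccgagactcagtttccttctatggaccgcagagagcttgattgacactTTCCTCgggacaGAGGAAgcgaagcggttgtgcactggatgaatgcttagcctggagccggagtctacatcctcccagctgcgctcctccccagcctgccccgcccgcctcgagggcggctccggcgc
Coro1a, chr7:126704817-126705066, minus strand: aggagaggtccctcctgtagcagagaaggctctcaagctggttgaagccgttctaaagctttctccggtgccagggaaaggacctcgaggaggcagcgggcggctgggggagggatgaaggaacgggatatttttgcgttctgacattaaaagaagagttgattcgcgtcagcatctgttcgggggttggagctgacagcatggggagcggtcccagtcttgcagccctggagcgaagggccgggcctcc
Cybb, chrX:9469325-9469574, minus strand: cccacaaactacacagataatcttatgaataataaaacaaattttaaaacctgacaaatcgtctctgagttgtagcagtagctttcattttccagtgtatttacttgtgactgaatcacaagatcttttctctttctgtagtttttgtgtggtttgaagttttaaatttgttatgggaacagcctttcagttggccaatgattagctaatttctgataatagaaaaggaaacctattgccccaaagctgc
The Gsn window lies before the first exon of the gene. The windows of Coro1a and Cybb lie inside the annotated gene span, before the start of a shorter transcript, and overlap no exon of the gene. GAGGAA matched 2 places in the Gsn window and none in the other 2. Over the same 250 upstream bases it was found on either strand in 6 of 38 members (Gsn, Rhog, Dock1, Atg5, Dock2, Vav1) and in 23.1% of 27025 promoters. The E-box CACGTG, searched on both strands and not overlapping that motif, was found in 5 of 38 members (Arpc5, Atg7, Atg5, Rubcn, Rab5a) and in 6.05% of all promoters, and in none of the 3 windows shown.

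Among the GTPases of the ELMO-DOCK-Rac module, Rac2 and Rhog varied more across classes than Rac1, Cdc42 and Rhoa: the ratios of the highest to the lowest class mean were 3.72 and 3.04 against 1.52, 1.51 and 1.27. Rac2, the Rac of blood cells, stood at 978 and 1152 CPM in neutrophil-gated cells, 789 and 479 in dendritic-gated, 526 and 505 in resident, 343 and 357 in monocyte-gated and 243 and 329 in macrophage-gated cells. Macrophage-gated cells were thus the lowest and neutrophil-gated cells the highest in both libraries, with no overlap between these classes. Rac1, the Rac found in nearly all cells, differed less, from 452 CPM in dendritic-gated cells of library 1 to 785 in neutrophil-gated cells of library 1. Rhog, a GTPase that recruits ELMO to the membrane, was at 453 and 462 CPM in neutrophil-gated cells and between 117 and 244 CPM in all other classes.

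The scaffold Elmo1 had low levels everywhere (17 to 41.3 CPM), and its order differed between libraries. Elmo2, its relative, was at 15.3 and 21.3 CPM in neutrophil-gated and at 35.9 to 64.2 CPM in the other classes. Dock2, the leukocyte partner of ELMO, ranged only from 28.7 to 75.6 CPM, and in all 6 classes it was lower in library 1 than in library 2. Dock1, the partner used in many tissues, rested on few UMIs: 10 and 24 in macrophage-gated, 6 and 26 in monocyte-gated, and 0 and 1 in neutrophil-gated cells. Dock8, an exchange factor for Cdc42, was highest in resident macrophages, at 40.2 and 58.7 CPM. Gulp1, an engulfment adaptor, had 0 UMIs in all 6 classes, which by a floor of 3 UMIs allows up to 0.574 CPM in monocyte-gated cells of library 2 and up to 15.3 CPM in neutrophil-gated cells of library 1, and it entered no test.

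**Figure D1:**
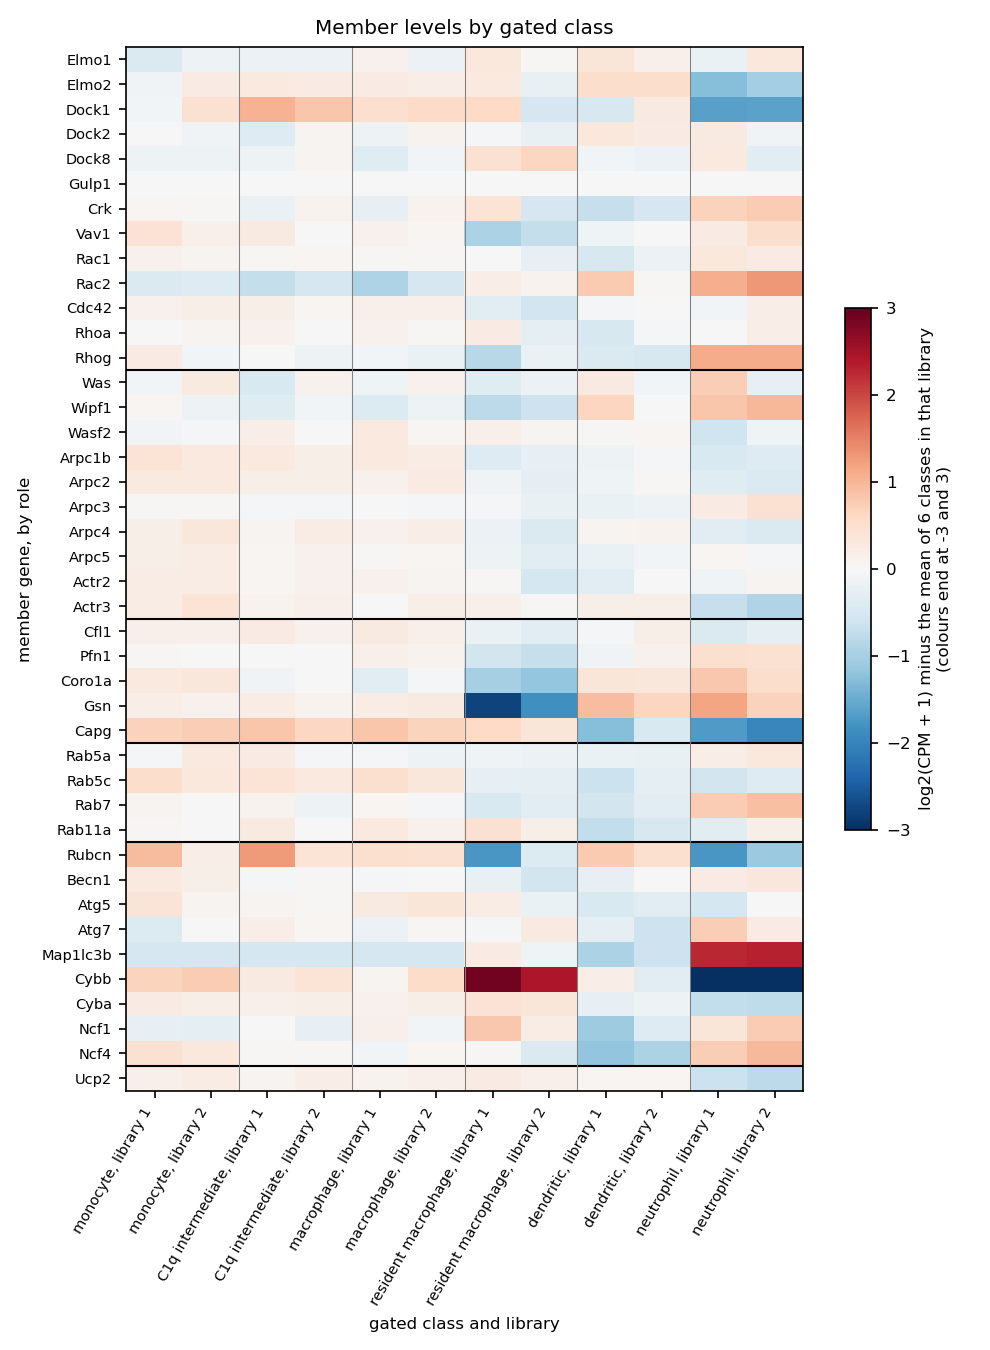
Levels of the 42 members (rows, by role) in 6 gated classes of each library (columns), as log2(CPM + 1) minus the mean of the 6 classes in that library, with colours ending at -3 and 3. Deep colours in both libraries mark Map1lc3b (red) and Cybb, Capg and Dock1 (blue) in neutrophil-gated cells and Cybb (red) and Gsn (blue) in resident macrophages; Gulp1 had no UMI and is blank.

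Subunits of the Arp2/3 complex varied little. Arpc1b, Arpc2, Arpc4, Arpc5, Actr2 and Actr3 each had their highest level in monocyte-gated cells of both libraries, and Arpc3 in neutrophil-gated cells. Arpc2 was at 1983 and 1861 CPM in monocyte-gated cells, 1760 and 1786 in macrophage-gated and 1269 and 1116 in neutrophil-gated cells. Actr3, an actin-related core subunit, was at 886 and 1111 CPM in monocyte-gated and 469 and 445 in neutrophil-gated cells, and each of the other 4 classes lay at 762 CPM or above. The activators varied in another order: Wipf1, which stabilises WASP, was highest in neutrophil-gated cells (91.7 and 144 CPM) and lowest in resident macrophages (29.2 and 46.1 CPM), while Wasf2, a WAVE protein, was lowest in neutrophil-gated cells (61.1 and 107 CPM). All levels are shares of library totals, and in neutrophil-gated cells the neutrophil markers took 221695 and 148477 CPM. Levels of other genes there thus stand lower than with the TMM scaling of the tests below. With that scaling Arpc5 was called higher in neutrophil-gated than in macrophage-gated cells.

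Among the genes of actin turnover, Capg, Gsn and Coro1a separated classes that the Arp2/3 subunits did not. Capg, which caps filament ends in macrophages, was at 959 and 664 CPM in macrophage-gated, 871 and 697 in monocyte-gated and 815 and 539 in resident cells, but at 222 and 305 in dendritic-gated and 163 and 106 in neutrophil-gated cells. Its levels in the first 3 classes did not overlap those in the other 2. Gsn, which severs and caps filaments, showed a different order, with 408 and 322 CPM in neutrophil-gated, 343 and 314 in dendritic-gated, 211 and 239 in macrophage-gated and only 25.6 and 54.5 CPM (7 and 26 UMIs) in resident cells. Coro1a, a coronin of leukocytes, had the same 2 classes at its ends, with 1885 and 1601 CPM in neutrophil-gated and 541 and 497 CPM in resident cells. Pfn1, which supplies actin monomers, was at 4845 and 3934 CPM in neutrophil-gated and 2379 and 1751 in resident cells.

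Among the Rab GTPases, Rab7 of late phagosomes was highest in neutrophil-gated cells, at 530 and 599 CPM, and between 215 and 338 CPM elsewhere. Rab5a and Rab5c, of early phagosomes, differed from each other: Rab5a varied from 62.8 to 100.4 CPM, while Rab5c was at 416 and 503 CPM in macrophage-gated, 190 and 331 in dendritic-gated and 204 and 302 in neutrophil-gated cells. Rab11a, of recycling membranes, was at 358 and 241 CPM in resident and 157 and 153 CPM in dendritic-gated cells.

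Of the genes of LC3-associated phagocytosis, Map1lc3b and Cybb spanned the widest ranges. Map1lc3b, which encodes an LC3 protein, stood at 1783 and 1924 CPM in neutrophil-gated cells, and the other 5 classes lay between 192 and 442 CPM in both libraries. Cybb, the catalytic subunit of the phagocyte oxidase (NOX2), stood at 789 and 1072 CPM in resident cells, 167 and 335 in monocyte-gated, 112 and 290 in macrophage-gated, 120 and 158 in dendritic-gated and 5.09 and 13 CPM in neutrophil-gated cells. Its membrane partner Cyba varied less, from 3102 and 2962 CPM in resident to 1381 and 1366 CPM in neutrophil-gated cells. The cytosolic subunits had another order: Ncf4 was highest in neutrophil-gated cells (433 and 512 CPM) and lowest in dendritic-gated cells (113 and 134), and Ncf1 was at 204 and 338 CPM in neutrophil-gated cells. Rubcn (Rubicon) had 0 to 37 UMIs in any class and library. Ucp2, a carrier of the inner mitochondrial membrane, lay between 800 and 979 CPM in 5 classes and at 530 and 445 CPM in neutrophil-gated cells.

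**Figure D2:**
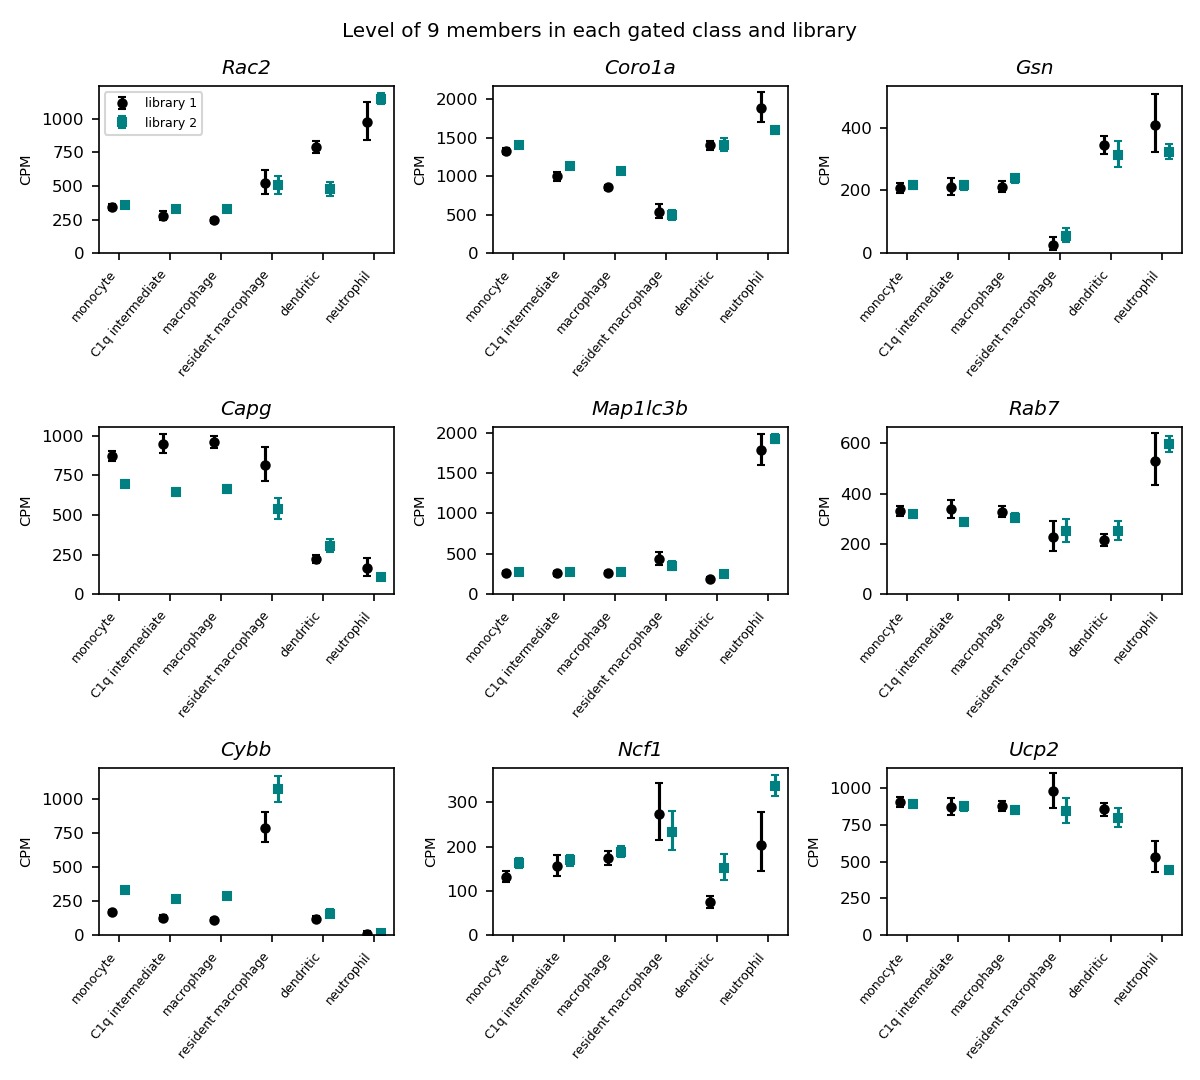
Level in CPM (y axis, from 0) of 9 members in 6 gated classes (x axis), with library 1 as black circles and library 2 as teal squares; bars are exact 95% Poisson intervals, which cover counting error only. Map1lc3b and Rab7 stand out in neutrophil-gated cells of both libraries (Map1lc3b at 1783 and 1924 CPM), Cybb in resident macrophages (789 and 1072 CPM), and Gsn is lowest in resident macrophages.

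Across the 6 classes, 12 members had their highest level in neutrophil-gated cells of both libraries (Crk, Rac1, Rac2, Rhog, Wipf1, Arpc3, Pfn1, Coro1a, Gsn, Rab7, Map1lc3b and Ncf4), 6 in monocyte-gated, 4 in resident (Dock8, Rab11a, Cybb, Cyba), 2 in dendritic-gated (Elmo2, Dock2), 1 in C1q intermediate (Dock1) and 0 in macrophage-gated cells. The lowest level was in neutrophil-gated cells of both libraries for 10 members and in resident cells for 6 (Vav1, Cdc42, Wipf1, Pfn1, Coro1a and Gsn). The shares of all genes with such ranks were not computed, so these counts cannot be read as particular to the members. They also rest on library totals, which place neutrophil-gated levels lower than TMM scaling does. The ratio of the highest to the lowest class mean over both libraries was under 2 in 22 members and over 4 in 6 (Capg, Rubcn, Map1lc3b, Gsn, Dock1 and Cybb).

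Whether C1q-high macrophages carry more engulfment RNA than the monocytes beside them was asked with edgeR's quasi-likelihood test, fitted to UMIs summed per library and class over all genes. None of the 41 members tested passed an adjusted p of 0.05 (Benjamini-Hochberg over 9565 genes), 1 had an unadjusted p below it, and DESeq2 called 0; over all genes 0.408% were called (39 of 9565). The median log2 fold change of the members was -0.07, against -0.01 over all genes. Coro1a came nearest, at 853 and 1072 CPM in macrophage-gated and 1321 and 1407 CPM in monocyte-gated cells; the values did not overlap (log2 fold change -0.52 ± 0.19 SE, 95% interval -0.93 to -0.12, edgeR adjusted p 0.422). For Rac1 the interval was -0.49 to 0.31, for Rac2 -0.91 to 0.28, for Rab7 -0.49 to 0.39, for Map1lc3b -0.46 to 0.41, for Cybb -0.90 to 0.13, for Elmo1 -0.24 to 0.68, for Dock2 -0.37 to 0.44 and for Ucp2 -0.47 to 0.32 (log2, edgeR standard errors over 2 libraries). These intervals bound how far each gene could differ and do not show equality. With the monocyte class limited to cells with a macrophage panel under 20 UMIs per 10000, 0 of 40 members and 150 of 8880 genes were called. The labels do not say which animals the libraries come from, but the libraries differ in sex. Xist was found in 0 cells of library 1 and, without Y-linked RNA, in 1298 cells of library 2. P-values here and below thus measure only how class differences vary between these 2 libraries. Animal, sex and technical parts of that variation cannot be told apart.

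Against neutrophil-gated cells, macrophage-gated cells carried more Cybb and Capg RNA and less Map1lc3b, Rac2, Wipf1 and Rhog RNA. In all, 4 of 41 members were higher and 20 lower (edgeR, adjusted p under 0.05), 58.5% of the members, where 57.4% of all genes were called (30.6% higher and 26.9% lower), so that the total share lay near the background and the split did not. The members' median log2 fold change was -0.55, against 0.20 over all genes. The split depends on the scaling. In neutrophil-gated cells the 10 neutrophil markers alone took 221695 and 148477 CPM, and the TMM factors, which correct for such dominance, were 0.833 and 0.683 there against 1.04 and 1.10 in macrophage-gated cells. With library totals only, the median log2 fold change of all genes moved from 0.20 to 0.82, a shift of 0.62, and the members split into 13 higher and 10 lower (46.5% and 17.7% of all genes); all 4 higher and 10 of the 20 lower members were called in both scalings. Those 10 were Gsn, Wipf1, Ncf1, Rab7, Rhog, Coro1a, Map1lc3b, Crk, Ncf4 and Rac2.

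By role, 2 of 12 tested ELMO-DOCK-Rac genes were higher in macrophages and 7 lower with TMM scaling. Of 10 actin branching genes 0 were higher and 3 lower (Wipf1, Arpc3, Arpc5), and of 5 actin turnover genes 1 was higher and 3 lower. Of 4 Rab genes 0 were higher and 2 lower, and of 9 LC3 and oxidase genes 1 was higher and 5 lower. Over all genes 30.6% were higher and 26.9% lower. With library totals the counts in the same order were 2 and 3, 4 and 1, 2 and 2, 1 and 1, and 3 and 3. There 46.5% and 17.7% of all genes were called, so the direction for actin branching depended on the scaling. Map1lc3b differed by -3.30 ± 0.22 on the log2 scale (SE, edgeR adjusted p 3.23e-08), with -3.07 in library 1 and -3.50 in library 2. With library totals it was -2.79. Rac2 followed with -2.43 ± 0.29 (edgeR adjusted p 8.51e-06), Wipf1 with -1.83 ± 0.26 (3.29e-05) and Rhog with -1.80 ± 0.23 (1.63e-05). Rab7 differed by -1.38 ± 0.21 (edgeR adjusted p 8.34e-05) and Coro1a by -1.35 ± 0.20 (4.24e-05).

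Some weaker members of the lower set did not keep their call. Rac1 (-0.76 ± 0.19, edgeR adjusted p 0.00361) was at -0.24 with library totals (adjusted p 0.235) and Elmo1 (-0.96 ± 0.26, adjusted p 0.00567) at -0.33 (0.238). Dock2 (-0.56 ± 0.23, edgeR adjusted p 0.0466) and Arpc5 (-0.48 ± 0.19, adjusted p 0.0408) turned to 0.07 and 0.04 with library totals. Ucp2 was not called with TMM scaling (0.33 ± 0.19, edgeR adjusted p 0.155) and was called higher in macrophages with library totals (0.84, adjusted p 0.000495).

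In the other direction, Capg differed by 2.10 ± 0.24 on the log2 scale (edgeR adjusted p 5.75e-06), with 2.22 and 1.96 in the single libraries. Cybb had 329 and 1275 UMIs in macrophage-gated and 1 and 30 in neutrophil-gated cells. With TMM scaling it differed by 3.62 ± 0.37 on the log2 scale (edgeR adjusted p 1.73e-06), and with library totals by 4.28. The plain ratio of CPM, which has no TMM correction, was 22.3 in library 2 (exact 95% counting interval 15.5 to 33.1) and, against 1 UMI, 21.9 in library 1 (interval 3.90 to 868). Dock1 was called (edgeR adjusted p 0.0197) on 10 and 24 UMIs against 0 and 1, and over both libraries its ratio had a counting interval of 1.94 to 470; DESeq2 did not call it (adjusted p 0.0615). Elmo2 was higher by 0.68 ± 0.26 (edgeR adjusted p 0.038). Its call ended in 6 of 10 alternatives, thinning among them.

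**Figure D3:**
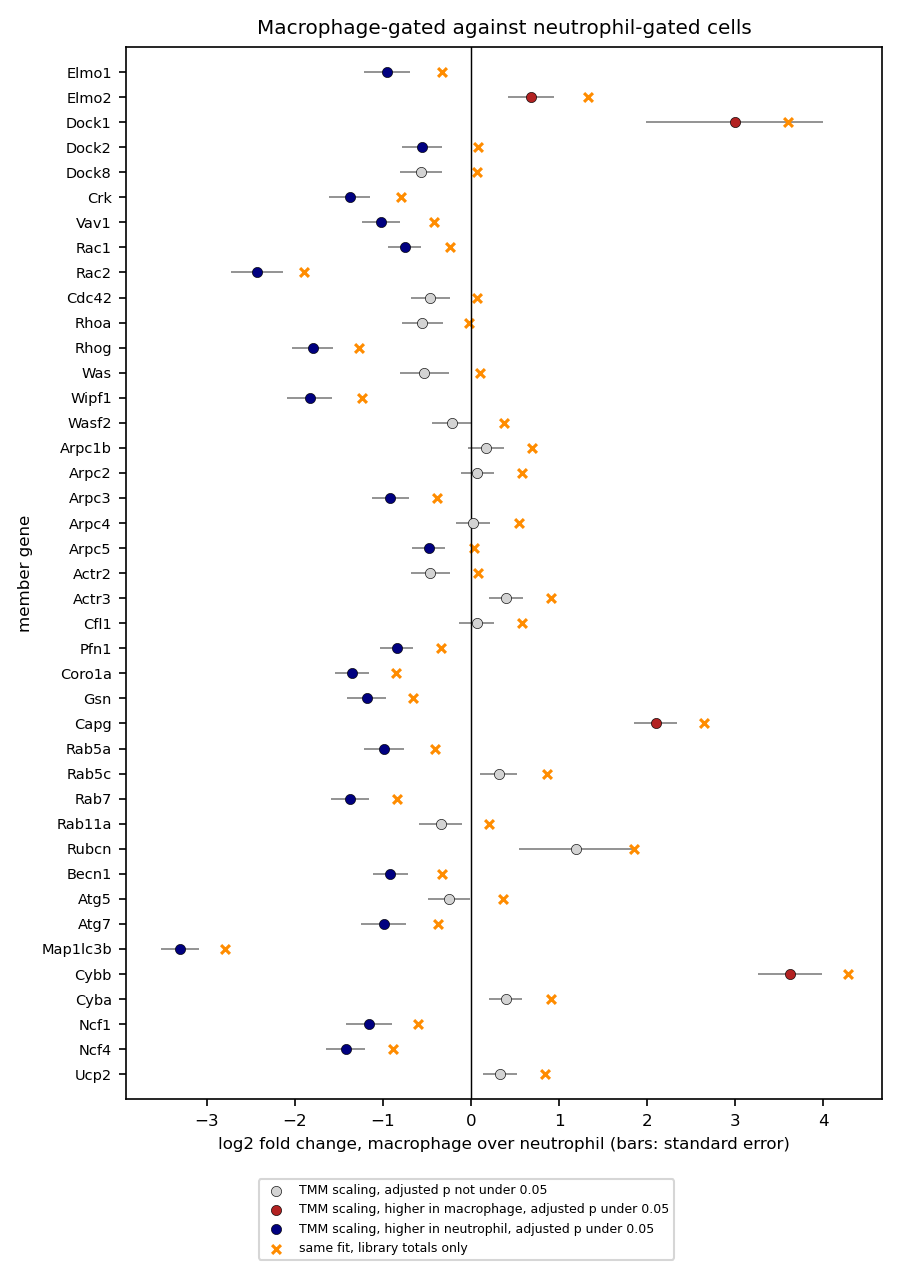
Log2 fold change of the 41 tested members (y axis), macrophage-gated over neutrophil-gated cells (x axis); circles are the edgeR estimate with TMM scaling and bars its standard error, red where higher in macrophages and blue where higher in neutrophils (adjusted p under 0.05), and orange crosses are the same fit with library totals only. Every cross lies to the right of its circle, so weak negative values such as that of Dock2 cross 0 while those of Map1lc3b (-3.30 and -2.79) and Rac2 (-2.43 and -1.90) do not.

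Depth was handled cell by cell as well, since neutrophil-gated cells had medians of 2170 and 1299 UMIs against 11953 and 12962 in macrophage-gated cells. Each cell was thinned to 1000 UMIs, which left out 372 neutrophil-gated and 8 macrophage-gated cells of library 2 and none of library 1. Before thinning, Map1lc3b was detected in 96.2% and 86.6% of neutrophil-gated and 91.5% and 89.4% of macrophage-gated cells; after it, in 79.5% (exact 95% binomial interval 68.8 to 87.8) and 81.9% (79.6 to 84) against 27.4% (21.7 to 33.5) and 20.8% (16.1 to 26.1). For Rac2 the shares were 85.9% and 72.0% against 87.2% and 91.1% before thinning, and 60.3% and 65.3% against 28.2% and 30.7% after it. For Rab7 they were 71.8% and 53.5% against 94.9% and 91.8% before, and 51.3% and 45.8% against 24.4% and 25.5% after. The unthinned shares of Rac2 and Rab7, and of Map1lc3b in library 2, thus had the opposite order to the CPM, and the thinned shares the same order as the CPM. Rac1, at equal depth, was found in 52.6% and 53.6% of neutrophil-gated and 52.1% and 44.9% of macrophage-gated cells, with overlapping intervals in both libraries. Cells of a library are not replicates, so this overlap is no test and does not show equality. The edgeR fit on thinned cells called Rac1 lower in macrophage-gated cells.

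C1qa, a macrophage gene that neutrophils should lack, was detected in 11.5% and 4.78% of neutrophil-gated cells before thinning and in 7.69% and 3.59% after it. Cybb was detected in 1.28% and 1.34% of neutrophil-gated cells before thinning and Capg in 23.1% and 12.7%. Genes of unequal abundance give unequal shares, so levels were also set against those of macrophage-gated cells: in neutrophil-gated cells C1qa was at 2.56% and 1.76% of its macrophage level, Cybb at 4.57% and 4.49% and Capg at 17% and 16%. The source of these UMIs in neutrophil-gated cells was not tested. In the same fit on thinned cells 2 members were higher in macrophages and 18 lower out of 37 tested, where 60% of 3670 genes were called (30.1% higher and 29.9% lower), and 16 of the 20 lower members of the unthinned fit were called in both (not Atg7, Dock2, Elmo1 and Rab5a). When library 2 was limited to the BC2 side of its tags, which left 22 of its 1570 neutrophil-gated cells, 3 members were higher and 6 lower, where 18.5% of all genes were called (11% higher and 7.53% lower).

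**Figure D4:**
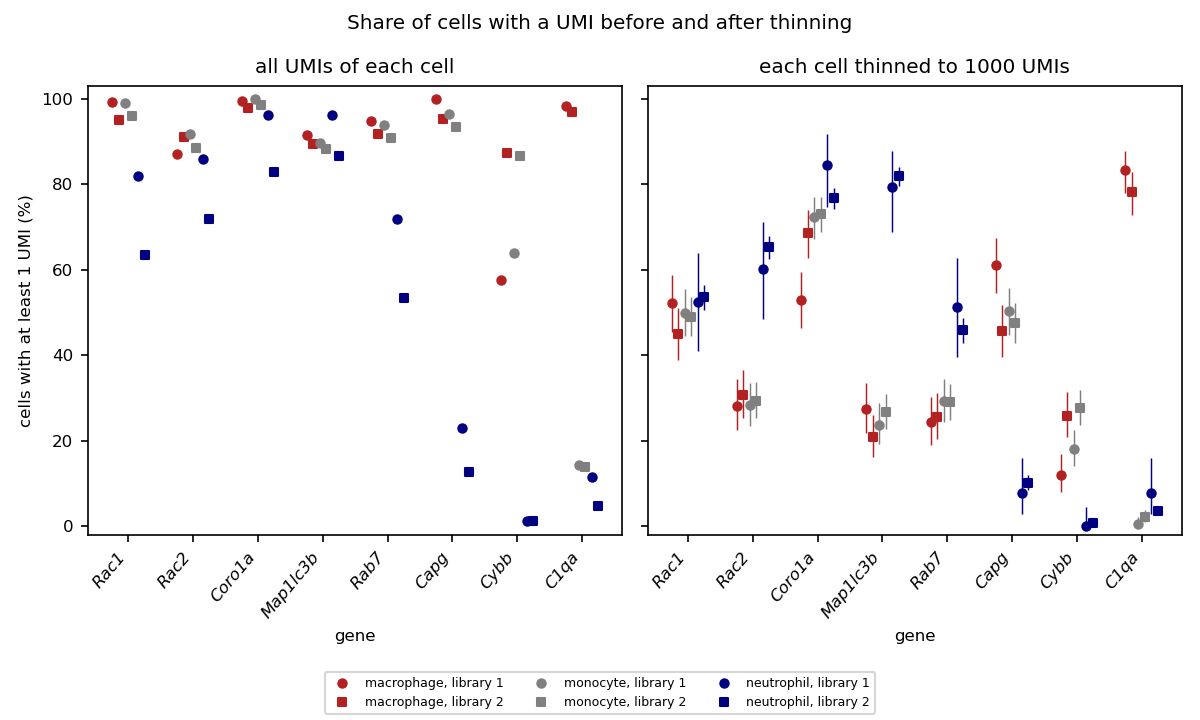
Share of cells with at least 1 UMI (y axis, %) of 7 members and the macrophage marker C1qa (x axis) in macrophage-gated (red), monocyte-gated (grey) and neutrophil-gated (blue) cells of library 1 (circles) and library 2 (squares), with all UMIs (left) and after thinning each cell to 1000 UMIs (right, bars are exact 95% binomial intervals). At equal depth Rac2, Map1lc3b and Rab7 lie highest in neutrophil-gated cells of both libraries, which before thinning held for none of them except Map1lc3b in library 1.

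Neutrophil-gated cells were also set against monocyte-gated cells, the other large infiltrating class. Of 41 members 19 were higher in neutrophils and 4 lower (56.1% of the members, where 53.7% of all genes were called, 25.4% higher and 28.3% lower); with library totals the split was 10 higher and 13 lower (16.2% and 45.5% of all genes), and the median of all genes moved from -0.18 to -0.78. The members' median was 0.51 with TMM scaling. This comparison shares the neutrophil class with the one before. Map1lc3b (3.28 ± 0.22, edgeR adjusted p 3.85e-08), Rac2 (2.12 ± 0.29, 3.31e-05), Wipf1 (1.60 ± 0.26, 0.000124) and Rhog (1.56 ± 0.23, 6.37e-05) were higher in both libraries. Lower in neutrophils were Capg (-2.08 ± 0.24, edgeR adjusted p 7.65e-06), Actr3 (-0.63 ± 0.19, 0.0124), Dock1 (0 and 1 UMIs against 6 and 26, 0.0403) and Cybb (1 and 30 UMIs against 521 and 1750, adjusted p 9.04e-07). The call of Dock1 was kept in only 3 of 8 alternatives, and DESeq2 was not among them.

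Rab7 was higher in neutrophils by 1.32 ± 0.21 (edgeR adjusted p 0.000131), Elmo1 by 1.18 ± 0.26 (0.00144), Coro1a by 0.83 ± 0.19 (0.00231), Rac1 by 0.67 ± 0.19 (0.00867) and Dock2 by 0.60 ± 0.23 (0.0378). With library totals Rab7 kept its call (0.81, edgeR adjusted p 0.00117), while Elmo1 (0.56, 0.0501), Coro1a (0.35, 0.0965) and Rac1 (0.17, 0.408) did not, and Dock2 turned to -0.02. Ucp2 stood at -0.40 ± 0.19 (edgeR adjusted p 0.0894) with TMM scaling and was called at -0.90 with library totals (adjusted p 0.000329). On thinned cells 20 of 37 members were higher and 3 lower, where 59% of all genes were called (29.6% higher and 29.4% lower); of the 19 higher ones 17 were called in both fits.

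Against dendritic-gated cells, macrophage-gated cells carried more Capg, Ncf4, Rab5c and Rab11a RNA and less Rac2 and Coro1a RNA. These 4 higher and 2 lower members were 14.6% of the 41 tested, where 16.5% of all genes were called (7.02% higher and 9.44% lower), so the members' share lay near the background. Their median log2 fold change was 0.09, against 0.01 over all genes, and the macrophage class is shared with the comparisons above. Capg differed by 1.52 ± 0.23 (log2, edgeR adjusted p 0.00034), with 1.94 and 1.13 in the single libraries. Ncf4, at 243 and 273 CPM against 113 and 134, differed by 0.99 ± 0.23 (edgeR adjusted p 0.00682). Rab5c differed by 0.79 ± 0.21 (edgeR adjusted p 0.017) and Rab11a by 0.75 ± 0.24 (0.045). Rac2 was lower by -1.28 ± 0.29 (edgeR adjusted p 0.00603), and its single-library values of -1.87 and -0.53 were far apart. Coro1a was lower by -0.64 ± 0.19 (edgeR adjusted p 0.0338).

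No call was made for Rac1 (0.29, 95% interval -0.12 to 0.69), Rab7 (0.36, -0.09 to 0.82), Map1lc3b (0.21, -0.23 to 0.65), Cybb (0.30, -0.25 to 0.84), Elmo1 (-0.43, -0.97 to 0.10), Dock2 (-0.39, -0.84 to 0.06) or Ucp2 (-0.02, -0.42 to 0.38; log2, edgeR). The comparison is thin on the side of library 2, with 44 dendritic-gated cells, which held C1qa at 218 CPM against 21.7 in library 1. With neutrophil-, monocyte- and dendritic-gated cells over 5 C1q UMIs left out, 31 dendritic-gated cells remained in library 2. Capg, Ncf4, Rab5c, Rab11a, Rac2 and Coro1a kept their calls in that fit, where 21.8% of all genes were called. The part of C1q RNA below that cut was not tested. Without the library as a block, and with classes taken from clusters, only Capg was called (4.68% and 6.75% of all genes). The cluster classes of library 2 mixed the gates: 44 of 96 cells in its dendritic cluster were dendritic-gated. In its macrophage cluster 167 of 464 cells were macrophage-gated.

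Resident macrophages carried more Cybb RNA than C1q-high macrophages and less Gsn, Coro1a, Pfn1 and Rab5c RNA. Of 41 members 1 was higher and 4 were lower (12.2% of the members, where 9.52% of all genes were called, 6.15% higher and 3.38% lower), a share near that of all genes. The members' median was -0.31, against -0.08 over all genes. Cybb stood at 789 and 1072 CPM against 112 and 290, a difference of 2.27 ± 0.26 (log2, edgeR adjusted p 3.22e-05), and Gsn at 25.6 and 54.5 CPM against 211 and 239, a difference of -2.44 ± 0.29 (4.8e-05). The groups did not overlap for either gene. Coro1a differed by -0.94 ± 0.20 (edgeR adjusted p 0.00624), Pfn1 by -0.81 ± 0.19 (0.0113) and Rab5c by -0.74 ± 0.22 (0.0451). By role, 3 of 5 actin turnover genes were lower, 1 of 4 Rab genes was lower, 1 of 9 LC3 and oxidase genes was higher, and 0 of 12 ELMO-DOCK-Rac and 0 of 10 actin branching genes were called.

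Rac2 was at 0.80 ± 0.29 (edgeR adjusted p 0.105) in resident over C1q-high macrophages and Map1lc3b at 0.51 ± 0.21 (0.164), both in the same direction in each library and neither called. Rab7 was at -0.45 ± 0.22 (edgeR adjusted p 0.256), Rac1 at -0.21 ± 0.19 (0.59), Dock2 at -0.22 ± 0.28 (0.718), Elmo1 at 0.12 ± 0.34 (0.893) and Ucp2 at 0.02 ± 0.19 (0.983). Only 27 and 22 resident cells stand behind these values. The summed platelet markers, of which 2 of 5 had a UMI in library 1 and 3 in library 2, also differed. They were at 40.2 and 6.29 CPM in resident cells against 2352 and 242 CPM in C1q-high macrophages, and their part in the result was not tested. With classes taken from clusters Cybb alone was called (5.87% of all genes), DESeq2 called 3 members higher and 9 lower (7.22% and 2.99% of all genes), and on thinned cells Gsn was not called (edgeR adjusted p 0.0657).

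**Figure D5:**
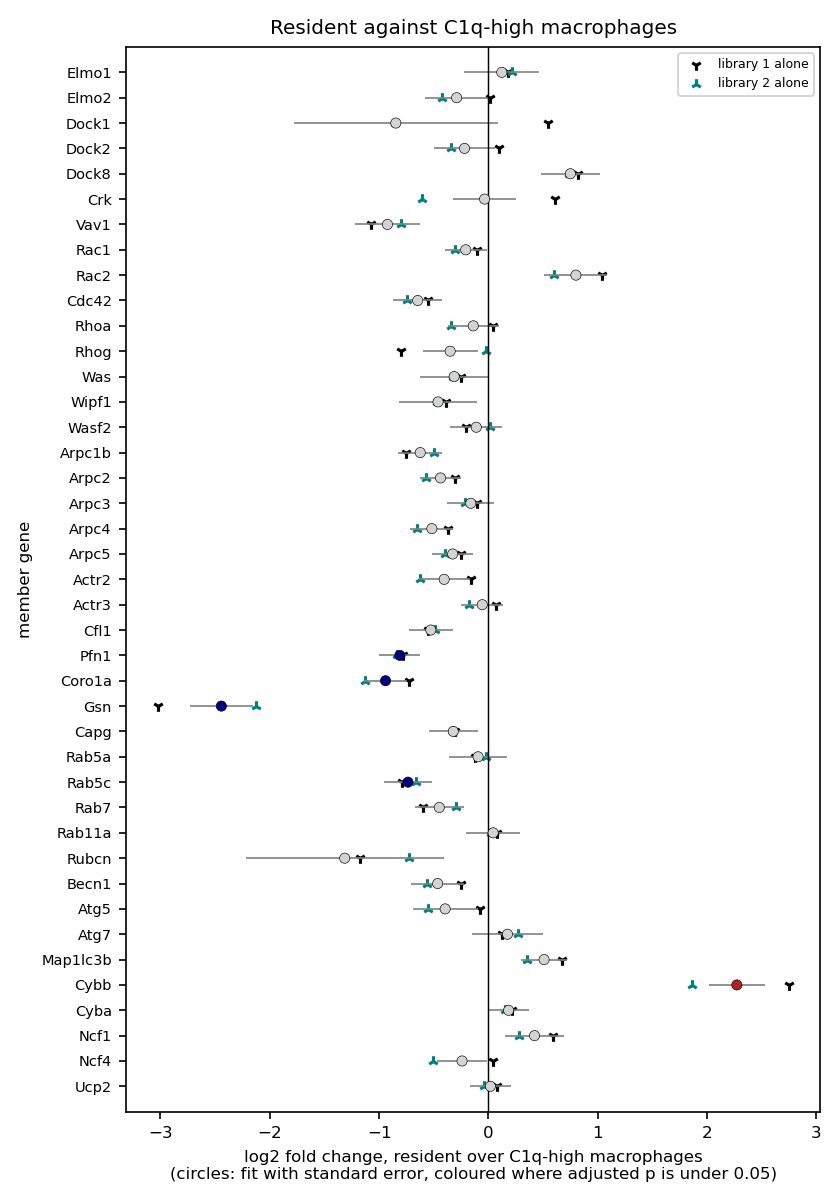
Log2 fold change of the 41 tested members (y axis), resident over C1q-high macrophages (x axis); circles are the edgeR estimate with its standard error, red or blue where the adjusted p is under 0.05 (higher or lower in resident cells), and black and teal marks are library 1 and library 2 alone. Cybb (2.27) and Gsn (-2.44) lie farthest from 0, and both libraries fall on the same side for each.

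Of 53 other genes of the same machinery, 51 were tested. Against monocyte-gated cells 0 were called in macrophage-gated cells by edgeR (5 at an unadjusted p under 0.05), against neutrophil-gated cells 8 were higher and 20 lower (20 and 14 with library totals), and against dendritic-gated cells 3 were higher and 6 lower. In neutrophil-gated over monocyte-gated cells 19 were higher and 9 lower (10 and 20 with library totals), and in resident over C1q-high macrophages 5 were higher and 4 lower. The called shares of these genes were 54.9% against neutrophils, 17.6% against dendritic-gated cells, 54.9% in neutrophils over monocytes and 17.6% in resident macrophages, beside 57.4%, 16.5%, 53.7% and 9.52% of all genes. With library totals, 46.5% of all genes were higher and 17.7% lower against neutrophils, and 16.2% and 45.5% in neutrophils over monocytes. Cyfip2, a subunit of the WAVE complex, had 4 and 15 UMIs in macrophage-gated cells (1.36 and 3.42 CPM) against 15.7 and 25.7 CPM in dendritic-gated and 10.2 and 24.8 CPM (2 and 57 UMIs) in neutrophil-gated cells, with log2 fold changes of -3.19 ± 0.41 (edgeR adjusted p 0.000138) and -3.56 ± 0.40 (7.07e-06). Its relative Cyfip1, named after its values were seen, had the opposite order, at 157 and 208 CPM in macrophage-gated, 57.8 and 126 in dendritic-gated and 30.6 and 32.6 in neutrophil-gated cells. The corresponding log2 fold changes were 1.00 ± 0.20 (edgeR adjusted p 0.00241) and 2.04 ± 0.24 (6.57e-06), and on thinned cells the former was not called (adjusted p 0.582).

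Rab20, a Rab of maturing phagosomes, was at 43.4 and 73.3 CPM in macrophage-gated, 7.22 and 20 in dendritic-gated and 112 and 116 in neutrophil-gated cells, and was higher than in dendritic-gated cells by 2.15 ± 0.27 (edgeR adjusted p 7.11e-05). Rab27a, which docks secretory granules, was at 6.1 and 22.8 CPM in macrophage-gated, 45.9 and 133 in neutrophil-gated and 73.1 and 109 in resident cells. It differed by -3.27 ± 0.26 in macrophages against neutrophils (edgeR adjusted p 2.05e-07) and by 2.62 ± 0.30 in resident over C1q-high macrophages (4.27e-05). Vps41, of the HOPS tether of late endosomes, had 73 and 136 UMIs in macrophage-gated and 0 and 4 in neutrophil-gated cells (edgeR adjusted p 9.58e-06).

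Some members overlap another gene, and whether the counting used strand is not given in the sources used here. Coro1a overlaps Bola2 (6026 UMIs in the fitted classes against 32261 of Coro1a), Arpc1b overlaps Pdap1 (3202 against 50854), Rac1 overlaps Daglb (699 against 17184) and Rubcn overlaps Fyttd1 (759 against 164). Each of these overlapping genes lies on the opposite strand, so these overlaps matter only if the counting ignored strand. In that case the values of Rubcn would be the most uncertain. Arpc4 overlaps Ttll3 (142 UMIs against 14116) on the same strand, so strand would not separate that pair.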

How the data were processed

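The deposited values are counts of UMIs per gene and cell, which the authors made with Cell Ranger 3.0.1 on mm10, per the submitters' processing notes. Barcodes needed at least 300 genes and at most 10% mitochondrial UMIs. Marker panels, in UMIs per 10000, gated the classes: neutrophil from 100, resident from 20, dendritic and lymphoid from 5, macrophage by C1q genes from 40 (10 to 40 intermediate), and monocyte by its own panel from 40 with C1q under 10. The cuts were set after the marker distributions were seen. Set aside as mixed (31 and 90 cells) were neutrophil-gated cells with high C1q, monocyte RNA or a pass of the dendritic, resident or a lymphoid gate. So were dendritic-gated cells with high C1q or a pass of the resident or a lymphoid gate. Lymphoid-gated cells with high C1q or a pass of the resident or the other lymphoid gate were also set aside. Other cells passing 2 gates were kept and not counted. Among those, lymphoid labels came first, then resident, dendritic, C1q and monocyte labels. No doublet caller was run, and 154 and 67 cells passed no gate. UMIs were summed per library and class and fitted with edgeR 4.0.16 (R 4.3.3, limma 3.58.1; class plus library, TMM, filterByExpr, Benjamini-Hochberg at 0.05). A standard error is the absolute log2 fold change over the root of the F statistic. Single-library ratios add 0.5 UMIs. DESeq2 1.42.0, library totals, no filter, no library term, thinning, tag side, clusters (scanpy 1.11.5) and other gates were alternatives. Each library holds all classes, and deviations of its classes from the class means correlated at 0.143 to 0.747 over 15 pairs, so the library is the block. Full statistics went to the 4 members with the largest calls in each direction of a comparison plus Elmo1, Dock2, Rac1, Rac2, Coro1a, Rab7, Map1lc3b, Cybb and Ucp2, and to the 3 largest calls among 53 related genes. Members and lists were chosen with earlier results of these data known. The edgeR fit was tried on simulated data for macrophage-gated against monocyte-gated cells only, with a common spread for all genes and no library effect. Poisson, binomial and ratio intervals cover counting error only, while intervals of log2 fold changes come from the edgeR standard errors.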

Additional observations from a re-analysis of the deposited data

Results flagged for a closer look

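Library 2 holds counts of 2 antibody tags, which were used only to choose the cells of the fits limited to the BC2 side. Over its kept cells, BC2 had 11105129 UMIs and BC3 had 5046963, and the labels do not say what either tag marks. Neutrophil-gated cells lay mostly on the BC3 side (1548 of 1570) and monocyte-gated cells mostly on the BC2 side (439 of 477). The neutrophil comparisons of library 2 thus run largely across the tags, and class and tag cannot be told apart there.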

How the results depend on the processing

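The count of members called in macrophage-gated over monocyte-gated cells was 0 in all 10 alternatives run. Of 713 values recomputed, 590 were counted as the same. For values with a test this meant the same direction and side of the threshold. For single-library ratios, which have no test, it meant lying within the standard error of the main estimate. Without the library as a replicate block, the counts were 0 for this comparison, 18 against neutrophil-gated cells (24 with the block), 18 for neutrophils over monocytes (23), 1 against dendritic-gated cells (6) and 3 for resident macrophages (5). On the BC2 side of library 2 the calls fell to 9 against neutrophils and 9 for neutrophils over monocytes; no fit was made there for resident cells, of which 12 remained. With cluster classes they were 13 for neutrophils over monocytes, 1 against dendritic-gated cells and 1 for resident macrophages, and on thinned cells 3 against dendritic-gated cells. For resident macrophages there were 8 calls with library totals, 12 with DESeq2 and 9 with no filter. Dock2 reversed with library totals, to 0.0746 in macrophages over neutrophils and to -0.0155 in neutrophils over monocytes. Over all genes, calls between macrophage- and monocyte-gated cells (39) were 0 without the block or with cluster classes, 217 with no filter, 104 without cells over 5 C1q UMIs and 150 with the low-panel monocytes. The causes were not tested. Leaving out a library leaves 1 sum per class and no test; the single-library ratios stand in the results. Depth limits Dock1, Rubcn and Gulp1, and Cybb in neutrophils.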

Other observations

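Lymphoid-gated cells gave levels outside every comparison. In B-cell-gated cells (25 and 14 cells) Rac2 was at 940 and 571 CPM, Coro1a at 1115 and 1289 CPM and Cybb at 183 and 264 CPM. In the 58 T- or NK-gated cells of library 2, Rac2 was at 870 CPM, Coro1a at 1717 CPM, Capg at 443 CPM, Map1lc3b at 292 CPM and Gsn at 120 CPM. B-cell-gated cells of library 2 also carried C1qa at 344 CPM and the T- or NK-gated cells at 311 CPM. The macrophage panel, which includes Apoe, summed to 9589 and 7717 CPM in B-cell-gated cells. In the T- or NK-gated cells of library 2 it summed to 3820 CPM and the monocyte panel to 6025 CPM. Lymphoid-gated cells with monocyte RNA were not set aside, and the part of myeloid RNA in these levels was not tested.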
